A study of Gallus gallus with 16 samples.

Results

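Retinoic acid is made from vitamin A and acts on genes through nuclear receptors, and 6 genes of this system were followed in chick lens fiber cells. They are the receptor genes RARA, RARB, RXRA and RXRG and the enzyme genes ALDH1A1 and ALDH1A2, out of 14100 gene IDs named in the table of peaks. The members were the peaks whose gene symbol in that table equals one of these names, 64 lines in all. Such lines were found for 5 of the 6 genes, and no line carried the symbol ALDH1A2 or an older symbol of it. The members were chosen from the peak lists themselves, so the values below describe these genes and are not tests.

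Cells oxidise retinol to retinaldehyde, and aldehyde dehydrogenases of the ALDH1A family turn retinaldehyde into retinoic acid. Retinoic acid binds a retinoic acid receptor (RAR), which sits on DNA as a pair with a retinoid X receptor (RXR) and switches from recruiting corepressors to recruiting coactivators. RXR proteins also pair with receptors for thyroid hormone, vitamin D and fatty acids. In the vertebrate eye, retinoic acid is known for its part in shaping the optic cup and the front of the eye. In mammals, RARA and RARB are each transcribed from an upstream and an internal promoter, which give proteins with different N-terminal ends.

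The study mapped 2 histone marks by CUT&RUN, which uses an antibody-guided nuclease to cut out the DNA next to a mark. H3K27ac, an acetylated lysine, marks active enhancers as well as promoters, and H3K4me3, a methylated lysine, marks active promoters. Whole lenses of White Leghorn chick embryos at day 13 were held in Medium 199 with serum for 2 h, either at 21% oxygen (normoxia) or at 1% oxygen (hypoxia), and each replicate pooled the fiber cells of 10 to 15 lenses. The standard formula of Medium 199 includes a vitamin A ester. The extraction text in the labels gives 0 h or 2 h in hypoxia as the times of dissection, which leaves the culture time of the normoxia lenses uncertain. Whether lenses of both conditions met this ester for the same time is therefore uncertain too. There were 2 H3K27ac and 3 H3K4me3 libraries per condition, and 3 per condition with the nonspecific antibody control IgG, which is not analysed here. The embryos carried no stated genetic change.

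Each mark has 1 list of peaks per condition, with no value per library, no peak height and an unknown read depth. No difference between conditions below therefore has a replicate check, and peak width is the sole measure of size. The lists held 15511 normoxia and 45734 hypoxia peaks of H3K27ac, and 22288 and 24987 of H3K4me3, and genes with any H3K27ac peak had a median of 1 in normoxia and 3 in hypoxia. Intervals in brackets are Wilson 95% intervals for the counting of peaks, not for the spread between lenses. They treat peaks as independent, although many belong to the same gene, and do not serve as a test against the whole list. Of 8 lens fiber markers, 7 had an H3K27ac promoter peak in both conditions, among them CRYAA, MIP and BFSP1, and LIM2 had no line. Of 4 lens epithelium markers, 1 had such a peak in normoxia and 3 in hypoxia. Of 18 markers of retina and neurons, pigment epithelium, blood and endothelium, and mesenchyme, 3 had one in normoxia and 6 in hypoxia. Promoter peaks in all 4 lists lay at LMO2, a blood and endothelial marker, and at the neuronal marker ELAVL4, with H3K27ac up to 2704 and 1222 bp wide. TYR, CDH5 and PTPRC had no promoter peak of either mark, but 11 H3K27ac peaks in normoxia and 15 in hypoxia were annotated to PTPRC outside that window. So were 3 H3K4me3 peaks in normoxia and 5 in hypoxia, which covered 8.25 and 7.85 kb. The part of other cells in the peaks described here was not tested.

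Nearly all of the peaks under the members' symbols belonged to the receptor genes. RARB had 26 peaks over the 4 lists, RXRA 21, RARA 12 and RXRG 4, while ALDH1A1 had 1. ALDH1A2 has no value here, since its symbol is missing from the table and peaks near it may be annotated to other genes. In H3K27ac the members had 11 normoxia peaks and 28 hypoxia peaks, which covered 15.1 and 19.7 kb, a ratio of 1.30 in covered length (the summed peak width). For the whole H3K27ac lists this ratio was 3.34, and the median over genes with peaks in both was 2.89. The members' normoxia length included a single RARA peak of 6359 bp, so their ratio depends strongly on 1 peak. In number of H3K27ac peaks the ratio was 2.55 for the members and 2.95 for the whole lists. The members' 10 normoxia and 15 hypoxia peaks of H3K4me3 covered 20.6 and 23.4 kb, a ratio of 1.14 beside 1.098 for the whole list. Of the 4 receptor genes with peaks in both H3K27ac lists, 3 covered more in hypoxia, as did 89.7% of the 6959 such genes, and RARA covered less. In H3K4me3 all 4 covered more in hypoxia, as did 60.1% of 11063 genes. The ratio was 1.41 for RARB, while those of RARA (1.07), RXRA (1.02) and RXRG (1.02) were below the median of 1.087 over these genes.

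**Figure D1:**
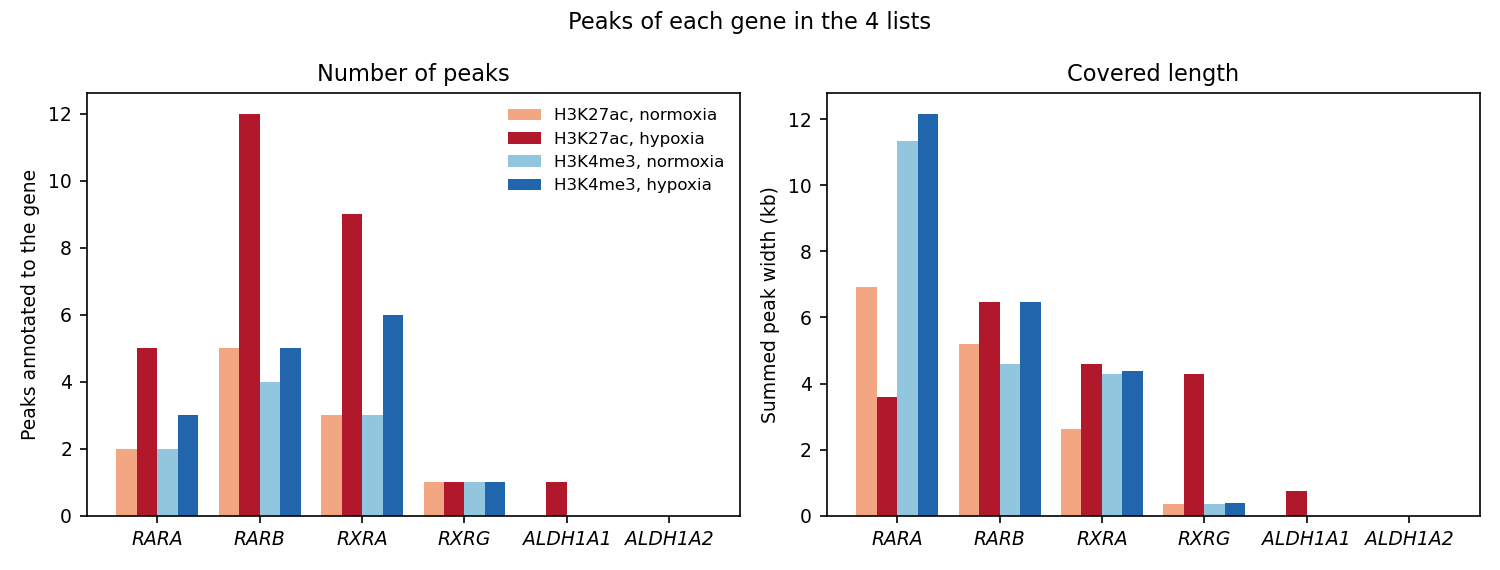
Number of peaks (left) and their summed width in kb (right) for each of the 6 genes, with 1 bar for each mark and condition and ALDH1A2 empty because no line names it. In H3K27ac, RARB has 5 normoxia and 12 hypoxia peaks and RXRA 3 and 9, while RARA has a covered length of 6.92 and 3.59 kb and RXRG of 0.364 and 4.29 kb.

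Promoter peaks were those within 3000 bp of a transcription start site (TSS) by the deposited distance. H3K4me3 promoter peaks lay at the 4 receptor genes in both conditions, where 72.2% of all genes in the table had one in normoxia and 73.9% in hypoxia. H3K27ac promoter peaks lay at RARA and RARB in normoxia (33.7% of all genes) and at RARA, RARB and RXRG in hypoxia (61.7%). The RXRG peak ended 1344 bp upstream of a TSS in hypoxia and 3382 bp upstream, outside the window, in normoxia. With a window of 1000 bp, 2 members had an H3K27ac promoter peak in each condition. RXRA had none in either H3K27ac list despite H3K4me3 at its TSS in both. That combination occurred at 19.0% of the 9754 genes with an H3K4me3 promoter peak in both conditions. Neither mark had a promoter peak at ALDH1A1.

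RARA, a receptor found in most tissues, was the member with the longest H3K4me3 coverage and the one with less H3K27ac coverage in hypoxia than in normoxia. Its H3K27ac covered 6.92 kb in 2 normoxia peaks and 3.59 kb in 5 hypoxia peaks, a log2 ratio of -0.95. Of the genes with H3K27ac in both lists, 3.46% had a lower ratio. The gene (ENSGALG00000037935) has TSSs at 7217090 and 7226913 on chromosome 27 of galGal6, 9.82 kb apart, as inferred from the deposited distances.

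In normoxia a single H3K27ac peak of 6359 bp (7222735 to 7229093) reached from within the gene across the second TSS. Its width was at percentile 99.95 of the normoxia list. In hypoxia the same stretch held separate peaks of 782 bp (7223851 to 7224632) and 1902 bp (7227574 to 7229475), which together overlapped 36.2% of the wide peak. The 1902 bp peak began 661 bp downstream of the second TSS, so the TSS itself lay within an H3K27ac peak in normoxia and outside one in hypoxia. Another hypoxia peak, of 453 bp, ended 116 bp before the start of the wide peak. Near the first TSS the normoxia list had a peak of 556 bp starting 2658 bp downstream and the hypoxia list one of 279 bp starting 537 bp downstream, which did not overlap. The last hypoxia peak, of 171 bp, lay 6662 bp past the second TSS, beyond the end of the gene by the deposited class.

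H3K4me3 at RARA lay at the same places in both conditions. The domain over the first TSS was 8490 bp wide in normoxia and 7418 bp in hypoxia, at percentiles 98.5 and 97.7 of their lists, and the hypoxia domain lay wholly inside the normoxia one. At the second TSS the peak was 2866 bp in normoxia, starting 45 bp past the TSS, and 4110 bp in hypoxia, spanning it. A further 644 bp peak of the hypoxia list overlapped the end of the first normoxia domain by 128 bp. Over the gene, H3K4me3 covered 11.4 kb at normal and 12.2 kb at low oxygen, and 91.7% of the normoxia length was also covered in hypoxia, against 33.3% of its H3K27ac length. RARB (94.4% and 43.3%) and RXRA (67.9% and 20.9%) differed in the same direction, and RXRG (33.7% and 100%) in the other. These shares over all genes are not given here, so the contrast is not read as particular to RARA. Both normoxia H3K27ac peaks and 4 of the 5 hypoxia ones overlapped H3K4me3 of the same condition.

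RXRG, an RXR of more restricted expression known from cone photoreceptors and other neurons, had its wide H3K27ac peak in hypoxia. Its gene (ENSGALG00000040730, chromosome 8) had 1 peak in each of the 4 lists. In normoxia its H3K27ac peak was 364 bp wide (5509201 to 5509564) and ended 3382 bp upstream of the TSS at 5512946. In hypoxia a peak of 4292 bp (5507311 to 5511602) contained the whole of it and ended 1344 bp upstream. Its width was at percentile 99.1 of the hypoxia list, and the normoxia peak was at percentile 33.5 of its own. The log2 ratio of covered length was 3.56, and 93.4% of genes with H3K27ac in both lists had a lower ratio.

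The wide RXRG peak did not reach a TSS and did not meet H3K4me3. The nearest H3K4me3 peak of the hypoxia list lay 9910 bp away, at a second TSS inferred 8.99 kb into the gene. There the H3K4me3 peaks were narrow, 368 bp over the TSS in normoxia and 376 bp ending 52 bp upstream of it in hypoxia. They shared 124 bp, and their widths were at percentiles 19.1 and 24.8 of their lists. No H3K4me3 peak was listed at the first TSS.

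**Figure D2:**
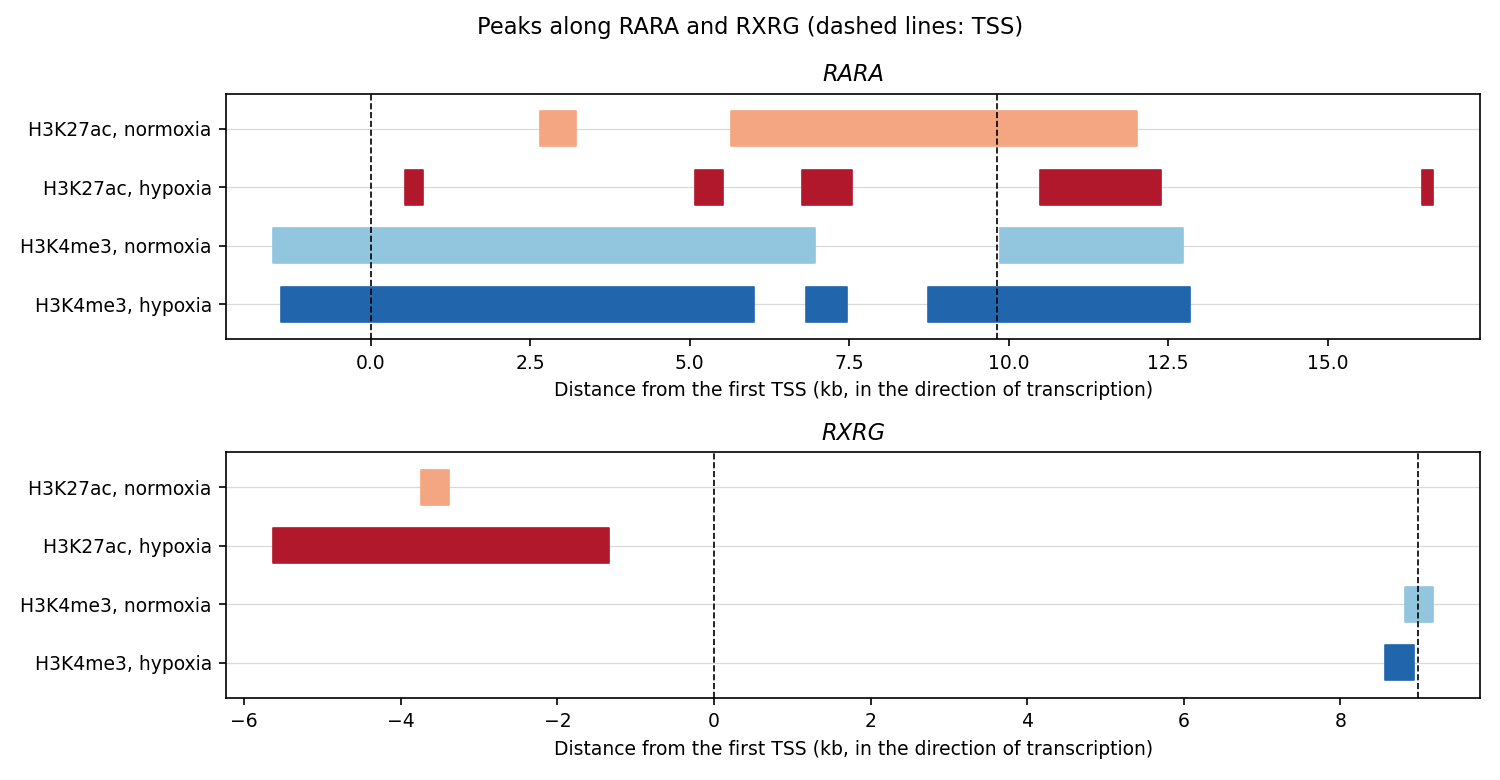
Peaks of RARA (top) and RXRG (bottom) in each list, drawn to scale in kb from the first TSS in the direction of transcription, with dashed lines at each TSS. The 6359 bp H3K27ac peak of RARA in normoxia faces shorter, separate peaks in hypoxia, whereas at RXRG the 364 bp normoxia peak lies inside the 4292 bp hypoxia peak.

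RARB, in mammals both a receptor gene and a direct target of retinoic acid through its internal promoter, had the most peaks of the set. The gene (ENSGALG00000011298, chromosome 2) had TSSs inferred at 37462364, 37471091 and 37693568, the last 231 kb downstream of the first. Its H3K27ac covered 5.18 kb in 5 normoxia peaks and 6.47 kb in 12 hypoxia peaks, a log2 ratio of 0.32, and 15.9% of genes had a lower ratio. Fewer H3K27ac peaks were annotated to 95.6% of all genes in normoxia and to 96.2% in hypoxia. These ranks are not adjusted for the length of a gene, and the TSSs of RARB alone span 231 kb.

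At the promoters of RARB, the H3K27ac peak that spanned a TSS was at the last TSS in normoxia and at the first in hypoxia, but both conditions had a peak within 3000 bp of the last. In normoxia a peak of 1210 bp (37692969 to 37694178) spanned the last TSS, and no peak lay within 3000 bp of the first. In hypoxia a peak of 605 bp (37461954 to 37462558) spanned the first TSS, 38.9 kb from the nearest normoxia peak. At the last TSS hypoxia had a peak of 281 bp, whose end lay 1859 bp upstream, separated from the normoxia peak by 1259 bp. H3K4me3 spanned the first and the last TSS in both conditions, with widths of 1717 bp (normoxia) and 2083 bp (hypoxia) at the first and of 2398 and 3151 bp at the last. No peak of either mark lay within 3000 bp of the middle TSS. Each normoxia H3K4me3 peak at these TSSs lay wholly inside the hypoxia one. The 605 bp H3K27ac peak was near the median width of its list (percentile 53.2), and the 1210 bp peak was at percentile 85.5. Neither the 605 bp nor the 281 bp peak was among the 15511 widest of the hypoxia list, so with lists of equal length RARB had no hypoxia promoter peak of H3K27ac.

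Away from the promoters, 3 H3K27ac sites of RARB were present in both conditions. About 39 kb upstream of the first TSS, peaks of 1168 bp (normoxia) and 1441 bp (hypoxia) shared 867 bp. In intron 2 of 9, peaks of 1331 and 1265 bp shared 1072 bp, and in intron 4 of 9, peaks of 1056 and 982 bp shared 303 bp. None of these 6 peaks overlapped H3K4me3. A further normoxia peak of 418 bp lay 41.3 kb upstream.

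The other 9 hypoxia peaks of RARB overlapped no normoxia peak, as was true of 80.7% of the whole hypoxia list of H3K27ac. Apart from the 605 bp promoter peak, an intron 3 peak of 724 bp was the widest of them, and the remaining 7 were 167 to 293 bp wide. Narrow H3K4me3 peaks of 1 condition were also listed, at 258 bp in normoxia and at 288 and 181 bp in hypoxia. In intron 3, 5.07 kb past the last TSS, an H3K4me3 peak of 207 bp in normoxia lay inside one of 769 bp in hypoxia.

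RXRA, the RXR present in most tissues, had H3K27ac inside the gene and not at its promoter. The gene (ENSGALG00000042055, chromosome 17, TSS inferred at 7577223) had 3 normoxia and 9 hypoxia peaks of H3K27ac, which covered 2.63 and 4.58 kb, a log2 ratio of 0.80, and 26.8% of genes had a lower ratio. All 3 normoxia peaks and 8 of the hypoxia peaks lay in introns, and the remaining hypoxia peak, of 391 bp, lay 14.5 kb upstream. The widest normoxia peak, of 2035 bp in intron 1 of 9 (7604646 to 7606680), was at percentile 95.5 of its list. In hypoxia a single peak of 549 bp lay inside it. The other 8 hypoxia peaks, 173 to 938 bp wide, overlapped no normoxia peak, and 2 of them lay 1048 and 1261 bp from one. In the whole hypoxia list of H3K27ac, 80.7% of peaks overlapped no normoxia peak.

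The H3K4me3 peak at the RXRA TSS was nearly the same in both lists, 2611 bp (normoxia) and 2787 bp (hypoxia), with 2610 bp shared. Downstream, a peak of 1088 bp in normoxia faced one of 306 bp in hypoxia. By the deposited class the normoxia peak was promoter at 4 to 5 kb and the hypoxia peak intron 1. This normoxia peak overlapped the 341 bp H3K27ac peak 5.08 kb past the TSS, the one place in RXRA where both marks of a condition met. Peaks of 300, 420, 294 and 286 bp were in the hypoxia H3K4me3 list alone, and one of 598 bp in the normoxia list alone. In total, the H3K4me3 peaks covered 4.30 kb (normoxia) and 4.39 kb (hypoxia).

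**Figure D3:**
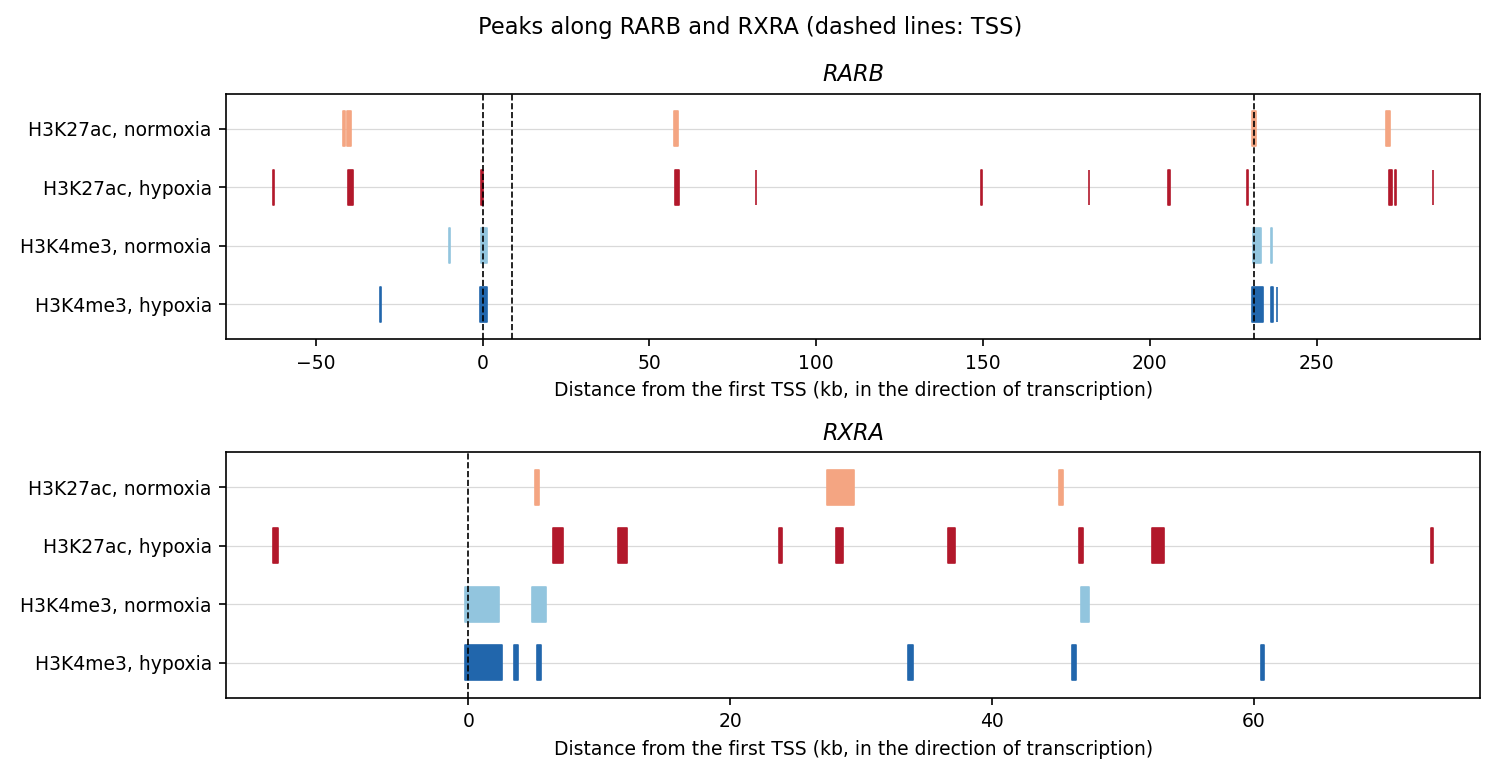
Peaks of RARB (top) and RXRA (bottom) in each list, in kb from the first TSS in the direction of transcription, with dashed lines at each TSS. RARB shows H3K27ac over the last TSS in normoxia, and in hypoxia a 605 bp peak over the first TSS and a 281 bp peak 1859 bp before the last, both absent from the 15511 widest hypoxia peaks, with 3 sites in common, and RXRA shows H3K4me3 at its TSS with H3K27ac further inside the gene.

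ALDH1A1, an enzyme gene active in the dorsal retina of vertebrate embryos, had 1 peak in the 4 lists. This was an H3K27ac peak of 742 bp in hypoxia (chromosome Z, 35993060 to 35993801), in intergenic sequence 34.7 kb upstream of the TSS. Some H3K27ac peak was annotated to 87.1% of the table's genes in hypoxia and to 52.3% in normoxia. The normoxia H3K27ac peak closest to it was 230 kb away. The gene (ENSGALG00000015147) had no H3K4me3 peak, whereas 83.1% of the table's genes had one in normoxia and 84.8% in hypoxia. ALDH1A2, the main retinoic acid-making enzyme gene of early embryos, had no line in the table, which does not show that it lacks peaks. Of its neighbours in the RefSeq gene order of GRCg7b, AQP9 had 3 H3K27ac peaks in hypoxia and 1 H3K4me3 peak in normoxia, and MYZAP had none.

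Over all members, 21 of the 28 H3K27ac hypoxia peaks overlapped no normoxia peak, 75.0% (56.6 to 87.3%), beside 80.7% of the whole list. This count was 7 of 14 among peaks of at least 500 bp, and 1 when the hypoxia list was reduced to its 15511 widest peaks, the length of the normoxia list. The whole-list share at these 2 settings is not given here. Hypoxia-only peaks were narrower than shared ones over the whole list too, so the fall is not read as a trait of the members. In the other direction, 5 of 11 normoxia peaks overlapped no hypoxia peak, 45.5% (21.3 to 72.0%), beside 39.3% of the whole list. For H3K4me3, 6 of 15 hypoxia peaks overlapped no normoxia peak, beside 41.2%. The reverse held for 2 of 10 normoxia peaks, beside 33.5%. Of the 21 hypoxia-only H3K27ac peaks, 13 lay in introns of RARB and RXRA, 3 in intergenic sequence and 3 within 3000 bp of a TSS. They were narrow, with a median of 293 bp beside 481 bp for all hypoxia-only peaks, and 11 were under 300 bp. Shares by genomic class and under 300 bp over all hypoxia-only peaks are not given here. These counts are therefore not read as traits of the members. The 7 shared ones had a median of 1265 bp, beside 1243 bp for all shared hypoxia peaks.

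H3K27ac of the members met H3K4me3 of the same condition in 4 of 11 normoxia peaks, beside 50.3% of the whole list, and in 5 of 28 hypoxia peaks, beside 35.6%. Most of these overlaps were at RARA, with 2 in normoxia and 4 in hypoxia. RARB had 1 in each condition, at the last TSS in normoxia and at the first in hypoxia, and RXRG none.

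**Figure D4:**
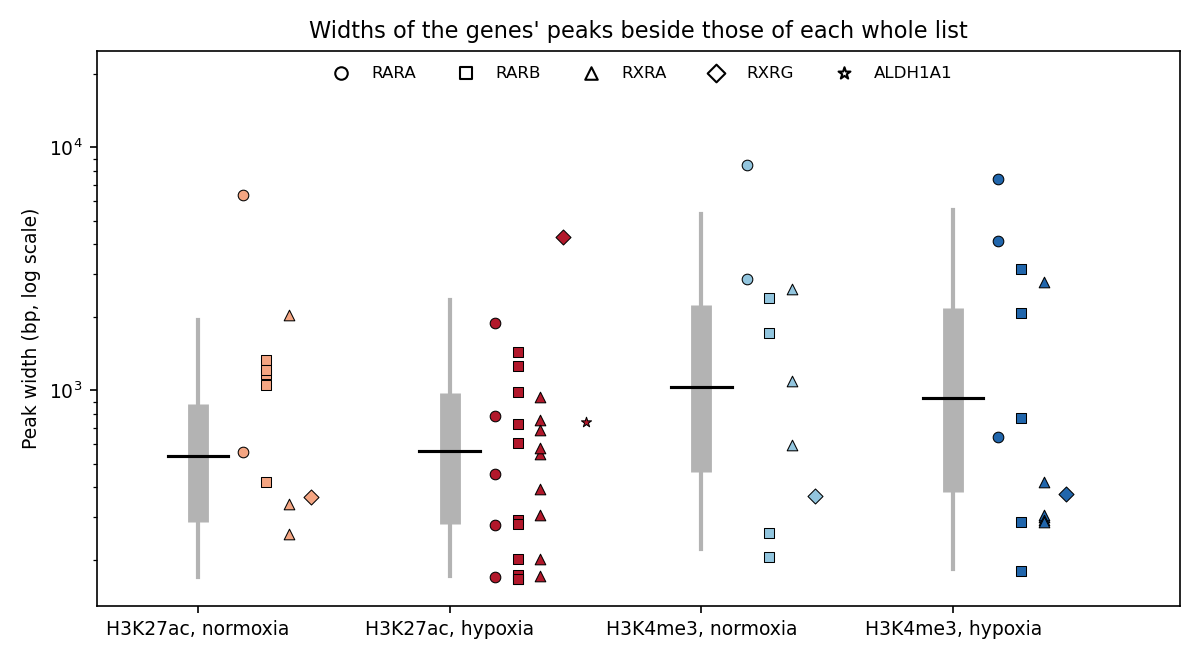
Width in bp on a log scale of every peak of the 5 genes with peaks (symbols), beside the whole list of each mark and condition (thin line, percentiles 5 to 95; thick bar, quartiles; black line, median). In normoxia the 6359 bp RARA and 2035 bp RXRA peaks stand above the 95th percentile of H3K27ac widths. In hypoxia the 4292 bp RXRG peak does. There 14 of the 28 H3K27ac peaks are under 500 bp, beside a median of 564 bp for the whole list.

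The gene most like each receptor gene was sought by Euclidean distance of log2(covered length + 500 bp) over the 4 lists, among 12878 other genes with a symbol. For RARA this was GATAD2B, a subunit gene of the NuRD chromatin complex, at a distance of 0.58, with 4.54 and 3.38 kb of H3K27ac in normoxia and hypoxia. For RARB it was TM2D1 (0.33), for RXRA it was PRDM1 (0.20), a transcriptional repressor gene, and for RXRG it was REC114 (0.30), a meiotic gene. The likeness was sought in length alone. Numbers of peaks differed for all of them in H3K27ac of hypoxia, while in other lists some were equal, as for REC114 and RXRG. In H3K27ac of hypoxia REC114 had 8 peaks where RXRG had 1, and PRDM1 had 3 where RXRA had 9. TM2D1 had 7 where RARB had 12, and GATAD2B had 4 where RARA had 5. ALDH1A1, with its single peak, was tied between COL14A1 and H2BE1.

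Other retinoid pathway genes were taken from a list of 53, of which 44 had a line in the table, CRABP1 under an older symbol. An H3K4me3 promoter peak was present at 32 of the 44 in each condition, beside 72.2% (normoxia) and 73.9% (hypoxia) of all genes in the table. At 30 genes both conditions had one. That left 2 genes with one in hypoxia alone and 2 in normoxia alone, beside 6.10% and 3.96% of the 10846 genes of the table with an H3K4me3 promoter peak. H3K27ac promoter peaks were present at 16 of the 44 in normoxia and 24 in hypoxia, beside 33.7% and 61.7% of all genes in the table. Of the 27 genes with one in either condition, 13 had one in both, 11 in hypoxia alone and 3 in normoxia alone. Of all 9295 genes with an H3K27ac promoter peak in either list, 48.8% had one in hypoxia alone and 6.44% in normoxia alone. Peak widths given for pathway genes below are those of the widest promoter peak in each list, not of the whole gene.

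The enzymes that break retinoic acid down all had H3K4me3 at the promoter in both conditions. CYP26A1 had H3K27ac there in hypoxia alone, with a widest peak of 2039 bp, as did CYP26B1 with 524 bp, and CYP26C1 had none. Of the enzymes upstream, RDH10, which makes retinaldehyde, had H3K27ac of 311 bp (normoxia) and 1833 bp (hypoxia) and H3K4me3 of 5487 and 7914 bp. RDH14 had H3K27ac of 184 and 1403 bp. LRAT, which stores retinol as esters, had H3K27ac in normoxia alone (462 bp), and RDH5 in hypoxia alone (599 bp). DHRS3, which turns retinaldehyde back to retinol, had H3K4me3 of 4693 and 3837 bp and no H3K27ac promoter peak. ALDH1A3, the third retinoic acid-making enzyme, had one promoter peak in all, an H3K4me3 peak of 205 bp in hypoxia.

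Among carriers, FABP5, a fatty acid-binding protein that also carries retinoic acid, had H3K27ac of 868 bp (normoxia) and 2088 bp (hypoxia). The retinol uptake receptor gene STRA6 had 1025 and 1136 bp. RBP5 had H3K27ac in normoxia alone (603 bp) and RBP7 in hypoxia alone (256 bp), while H3K4me3 of RBP4 (685 bp) and RBP7 (354 bp) was in normoxia alone. CRABP1 and CRABP2 had no promoter peak.

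RARG, the third RAR gene, had H3K27ac at its promoter in hypoxia alone, with a widest peak of 1371 bp, and H3K4me3 in both (2443 and 2791 bp). Of the genes for partners of RXR, H3K27ac promoter peaks were in both conditions at PPARD (1608 and 900 bp) and THRA (563 and 1021 bp). Those in hypoxia alone belonged to THRB (892 bp), PPARG (686 bp), NR1H3 (585 bp) and PPARA (443 bp). THRB, which neighbours RARB, had 1 H3K27ac peak in normoxia and 5 in hypoxia over all its annotated peaks.

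Genes of the coregulators had some of the widest H3K4me3 promoter peaks of the pathway. At NRIP1, a ligand-dependent corepressor, they were 14133 bp (normoxia) and 15143 bp (hypoxia) wide, and at the coactivator gene NCOA2 13865 and 11531 bp. NRIP1 H3K27ac promoter peaks were 1343 and 2169 bp, and those of the acetyltransferase gene EP300 were 1796 and 811 bp. NCOA3 (599 bp) and NCOA2 (594 bp) had an H3K27ac promoter peak in hypoxia alone. Over the whole gene, NCOA3 had 8 H3K27ac peaks in normoxia and 14 in hypoxia. Of the known targets of retinoic acid, MEIS2 had H3K27ac of 1462 bp (normoxia) and 529 bp (hypoxia), and TGIF1 had 579 and 1269 bp. MEIS1 had an H3K27ac promoter peak in normoxia alone (482 bp), but 4 H3K27ac peaks in normoxia and 5 in hypoxia over the whole gene. RARRES1 had an H3K4me3 promoter peak in hypoxia alone (375 bp).

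**Figure D5:**
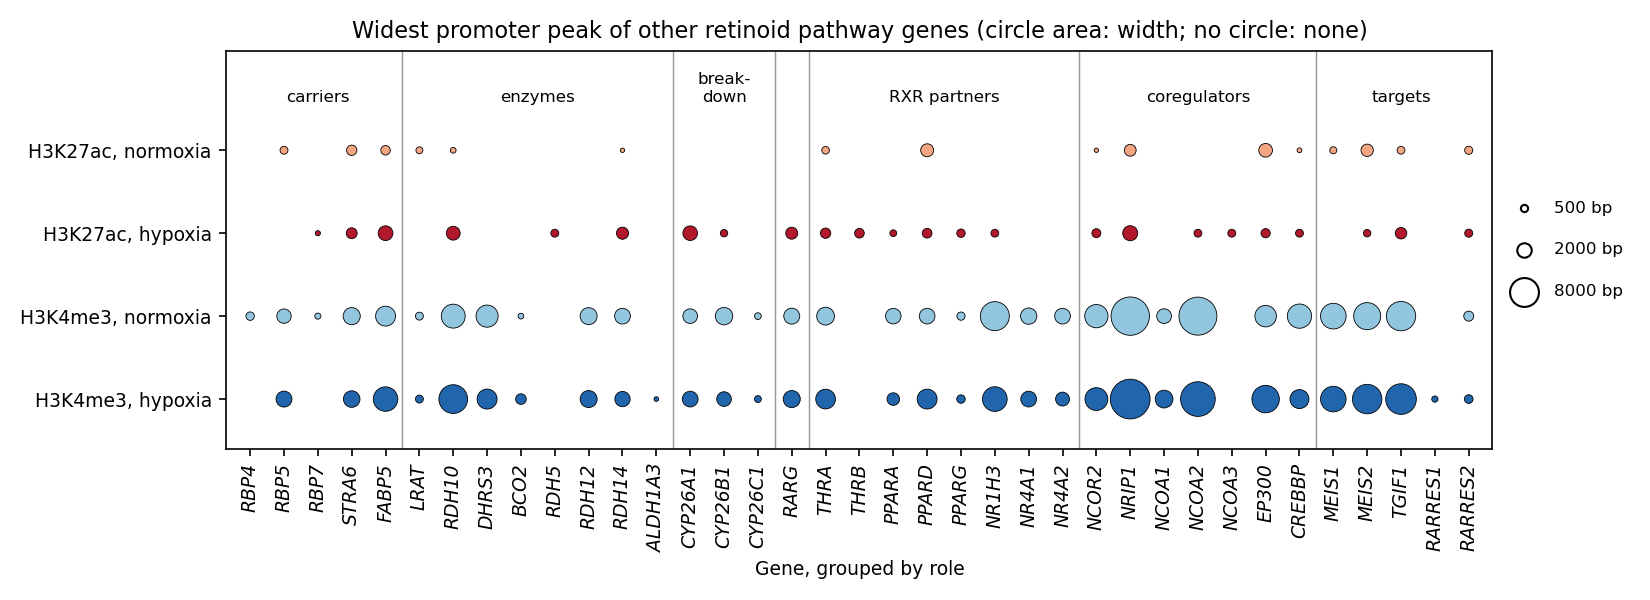
Widest promoter peak of the 37 pathway genes with a promoter peak in any list, grouped by role, with 1 row for each mark and condition and circle area proportional to width in bp. H3K4me3 circles appear at 32 genes in each condition, and H3K27ac circles at 16 genes in normoxia and 24 in hypoxia. Of all genes in the table, 33.7% (normoxia) and 61.7% (hypoxia) had an H3K27ac promoter peak.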

How the data were processed

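The authors deposited 1 table that joins 4 lists of peaks, 1 per mark and condition. Per the file headers it gives chromosome, start, end, genomic class, nearest transcript, distance to its TSS and gene. Tools in the submitters' processing notes are STAR, DESeq2, MACS2 and ChIPseeker, with build galGal6 and without version or role; the peak threshold, the control and any pooling of libraries are not given in the sources used here. Starts count from 0, as upstream and downstream distances to one TSS showed, and are printed counting from 1. Each interval was counted once per gene (108520 distinct peaks in 124414 lines). Python 3.11.15 with pandas 2.3.3 was used. Peaks sharing at least 1 bp were called shared. Overlap code was tested on simulated intervals and against bedtools 2.31.1. A TSS was inferred from the deposited distances. Lists allow no test between conditions, so none was made. Named genes are the 6 members, the nearest gene to each, and of the pathway list the widest or 1-condition promoter peaks of each role, with some others of the list chosen after their values were seen. Members and lists were chosen with earlier results of these data known. No sequence was read.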

Additional observations from a re-analysis of the deposited data

How the results depend on the processing

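No paired analysis was possible because the lists hold no value per library, and leaving out a replicate could not be run for the same reason. With peaks of at least 500 bp, the members had 7 H3K27ac peaks in normoxia (13.7 kb) and 14 in hypoxia (16.2 kb). H3K4me3 then had 7 in hypoxia (21.0 kb), and its normoxia length was 19.8 kb. Peaks of that width in 1 list alone were 2 (normoxia) and 7 (hypoxia) for H3K27ac and 1 and 0 for H3K4me3. Pathway genes with an H3K27ac promoter peak in normoxia were then 10 instead of 16 (a setting chosen after seeing the data). When sharing required an overlap of 50% of each peak, 9 normoxia H3K27ac peaks, 5 normoxia H3K4me3 peaks and 10 hypoxia H3K4me3 peaks were in 1 list alone. With the H3K27ac hypoxia list reduced to its 15511 widest peaks, 1 hypoxia-only peak was left instead of 21. Counting peaks within 1000 bp as shared, also chosen after seeing the data, left 1 normoxia-only H3K4me3 peak. The promoter window of 1000 bp, repeated lines, entries with several gene symbols and a limit of 100 kb moved no count by over 1.5 times. That window did take members with a hypoxia H3K27ac promoter peak from 3 to 2. Shares over the whole lists at these settings are not given here, so the changed counts are not read as traits of the members. The unknown depth limits every count of narrow peaks.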
